A study of Rattus norvegicus with 9 samples.

Results

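The genes described here are 10 of the 36856 genes measured by RNA sequencing in H9c2(2-1) cells: Cacna1c, Cacna1s, Cacna2d1, Cacnb3, Ryr1, Ryr3, Itpr1, Atp2a2, Stim1 and Orai1. They were taken by symbol for their role in calcium handling and excitation-contraction coupling, with earlier results of these data known. All 10 were found. H9c2(2-1) is a line of myoblasts from the heart of an embryonic BD1X rat, labelled as wild type (WT), and all libraries come from this single line. The 9 libraries form 3 groups of 3. ESW cells received energized structured water and CW cells received control water, each at a dilution of 0.01 for 72 h with medium renewal every 24 h. Control cells were untreated and kept in normal growth medium, with no duration recorded. The study set ESW against both other groups.

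Contraction of muscle starts with calcium. Voltage-gated channels of the surface membrane open, ryanodine receptors release calcium from the sarcoplasmic reticulum, and the SERCA pump returns it. Cells without this machinery release calcium through inositol trisphosphate receptors instead, and refill the store through STIM sensors of the reticulum and ORAI channels of the surface membrane. The voltage-gated channels and ryanodine receptors of muscle are built up as myoblasts differentiate to fibres.

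Each library held 26748673 to 48574618 estimated reads. On the first principal component, with 24.1% of the variance, the ESW libraries lay between -28.7 and -8.79 and the CW libraries between 15.4 and 16.5. Control replicates 2 and 3 lay at 7.08 and 12.3, but Control replicate 1 lay at -10.9, within the ESW range. The labelled cell type was checked against its markers. Myod1 and Myog, regulators of the myoblast state and of muscle cell fusion, averaged 10.0 and 2.53 CPM in ESW, 8.61 and 2.41 in CW, and 8.09 and 2.86 in Control (CPM: a gene's reads relative to the scaled library total). Of 12 heart muscle markers, 9 stayed under 1 CPM in every library, and Nkx2-5 and Nppa had 6 and 5 reads in all. The other heart markers were Tnnt2, at 51.4 to 62.3 CPM, Gata4, at 4.81 to 6.45 CPM, and Tnni3, at 0.457 to 1.22 CPM. Of 16 skeletal muscle markers, 6 stayed under 1 CPM in every library. Among them, Myf5, Myf6, Actn2 and Ckm had 2, 3, 12 and 18 reads in all. Others were expressed, with Myh1 at 46.7 to 80.2 CPM, Tnnc2 at 13.1 to 16.0 CPM and Des at 3.88 to 6.65 CPM. All 5 blood markers and 4 of 5 endothelial markers were under 1 CPM throughout, as were 4 of 5 epithelial markers. The epithelial marker Krt8 lay at 49.2 to 64.6 CPM. By far the highest sum was that of the 9 fibroblast and smooth muscle markers, at 85040 to 103840 CPM. Most of it came from the collagen genes Col1a1, Col1a2 and Col3a1. Of the 9, Pdgfra stayed under 1 CPM.

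The 250 bases before the annotated start are shown for the 3 genes that were higher in ESW than in Control (Atp2a2, Cacnb3, Stim1) and for 2 genes of the muscle fibre machinery that were near the limit of detection (Cacna1s, Ryr1). They come from RefSeq promoter windows of the assembly GRCr8, which hold 13 windows for the 10 genes. The start that these cells use was not measured. Sequences run 5′ to 3′ on the strand of the gene, and capitals mark matches to the GC box (GGGCGG), the CCAAT box (CCAAT) and the E-box (CANNTG) on either strand. In Cacnb3 an E-box and a GC box overlap.
Atp2a2 (GRCr8, chr12:39733269-39733518, plus strand): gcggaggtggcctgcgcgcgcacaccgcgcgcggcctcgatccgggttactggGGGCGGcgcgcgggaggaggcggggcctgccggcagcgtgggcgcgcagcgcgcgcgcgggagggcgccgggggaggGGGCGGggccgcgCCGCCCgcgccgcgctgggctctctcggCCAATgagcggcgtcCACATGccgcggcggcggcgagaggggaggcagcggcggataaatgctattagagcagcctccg
Cacnb3 (GRCr8, chr7:131666301-131666550, plus strand): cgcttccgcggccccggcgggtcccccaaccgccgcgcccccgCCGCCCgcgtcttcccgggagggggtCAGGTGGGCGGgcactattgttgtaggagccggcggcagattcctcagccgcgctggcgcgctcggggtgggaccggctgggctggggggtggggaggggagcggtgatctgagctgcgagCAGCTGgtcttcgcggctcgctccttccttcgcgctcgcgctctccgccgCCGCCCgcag
Stim1 (GRCr8, chr1:166067964-166068213, plus strand): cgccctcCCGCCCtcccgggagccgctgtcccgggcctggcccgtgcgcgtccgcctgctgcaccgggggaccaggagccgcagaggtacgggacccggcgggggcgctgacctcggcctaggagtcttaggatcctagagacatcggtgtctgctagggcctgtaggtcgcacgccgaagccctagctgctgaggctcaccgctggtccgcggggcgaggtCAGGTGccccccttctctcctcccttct
Cacna1s (GRCr8, chr13:50045418-50045667, plus strand): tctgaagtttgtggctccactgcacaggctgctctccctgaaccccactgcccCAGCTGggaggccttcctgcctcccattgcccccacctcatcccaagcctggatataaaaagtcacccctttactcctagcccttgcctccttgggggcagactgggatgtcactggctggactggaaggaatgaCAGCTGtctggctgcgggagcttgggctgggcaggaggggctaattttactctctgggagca
Ryr1 (GRCr8, chr1:93551306-93551555, minus strand): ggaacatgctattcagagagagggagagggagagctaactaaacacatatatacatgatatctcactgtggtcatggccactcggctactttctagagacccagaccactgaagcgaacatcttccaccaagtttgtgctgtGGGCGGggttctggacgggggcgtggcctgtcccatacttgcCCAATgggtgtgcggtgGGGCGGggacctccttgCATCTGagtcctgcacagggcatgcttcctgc

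Base composition separated the windows printed here. The Atp2a2, Cacnb3 and Stim1 windows hold 45, 35 and 24 CpG dinucleotides, with 80.0%, 76.4% and 72.0% G and C. The Cacna1s and Ryr1 windows hold 1 and 7 CpG, with 59.2% and 55.6% G and C, against a median of 5 CpG and 51.2% over 33465 windows of all genes. The pattern did not hold for every member: the window of Cacna1c, a well-expressed gene, holds 3 CpG, and Ryr3, which was barely detected, has a window with 29. A GC box was found in windows of 7 of the 10 genes (10 of 13 windows), where 30.5% of all windows hold one. The E-box was found for 8 genes (9 of 13 windows), with 65.5% of all windows, and the CCAAT box for 5 (6 of 13 windows), with 34.0%. The muscle form of the E-box, CAGCTG, was found for 2 genes, Cacna1s and Cacnb3 (2 of 13 windows), and in 12.0% of all windows. The core bound by NFAT factors, GGAAA, was found for 3 genes (4 of 13 windows), with 56.9% of all windows. The MEF2 site and the CArG box were found for 0 genes, with 3.0% and 1.5% of all windows. Each motif was searched on both strands. Of the 13 windows, 2 of Cacna2d1 overlap over most of their length, so that most of their bases are counted in both.

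Of the genes, 7 were well expressed and 3 were close to absent, as the plot of levels by library shows. Levels are compared between genes in TPM, reads per base of transcript scaled to the library. Among the surface channel subunits, Cacna1c, the pore of the cardiac L-type channel, averaged 11.7 ± 0.425 TPM in ESW, 11.2 ± 0.357 in CW and 10.7 ± 0.547 in Control (SD, n = 3 each). Cacna1s, the pore of the skeletal L-type channel and voltage sensor, lay between 0.103 and 0.265 TPM in the 9 libraries, from 20 to 29 reads each. The auxiliary subunits stood above both pores: Cacna2d1, the alpha-2/delta subunit that brings channels to the membrane, had 35.3 to 41.8 TPM and Cacnb3, a cytoplasmic beta subunit, 48.8 to 58.0 TPM.

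**Figure D1:**
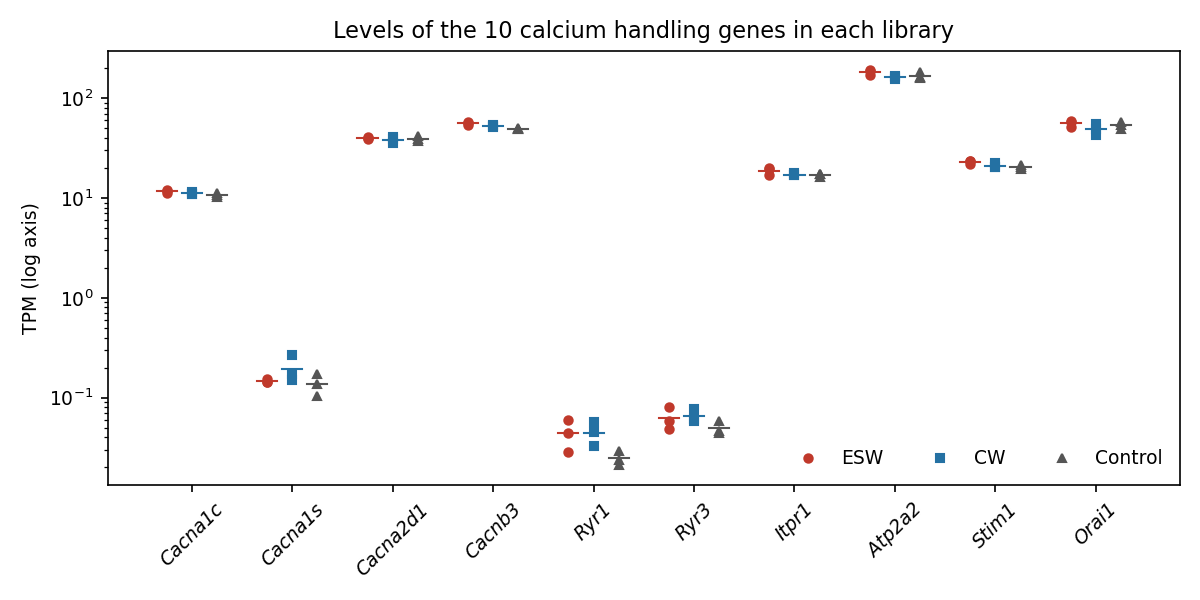
TPM (log axis) of the 10 genes in each of the 9 libraries, with ESW as circles, CW as squares and Control as triangles; short lines are group means (n = 3). Cacna1s, Ryr1 and Ryr3 stay below 0.265 TPM in every library, and the other 7 genes stay above 10.1 TPM.

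Of the channels that release calcium from the reticulum, Itpr1, the type 1 inositol trisphosphate receptor, averaged 18.7 ± 1.48 TPM in ESW, 17.2 ± 0.485 in CW and 16.9 ± 0.653 in Control. Ryr1, the skeletal ryanodine receptor, had 0.0210 to 0.0602 TPM and Ryr3, a form found widely at low levels, 0.0441 to 0.0800 TPM. In reads, Ryr1 had 11, 25 and 16 in ESW, 9, 23 and 17 in CW and 12, 8 and 12 in Control. Atp2a2, the SERCA2 pump of heart, smooth muscle and non-muscle cells, was the highest of the 10 at 182 ± 9.83 TPM in ESW, 163 ± 5.70 in CW and 168 ± 12.6 in Control. Stim1, the calcium sensor of the reticulum, had 19.4 to 23.4 TPM, and Orai1, the pore it opens, 43.0 to 58.8 TPM.

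In order of mean TPM over the 9 libraries, Atp2a2 at 171 was followed by Orai1 at 52.8 and Cacnb3 at 52.7, which did not differ beyond their spread. Cacna2d1 at 39.0 lay below the range of both. Stim1 at 21.4 and Itpr1 at 17.6 overlapped in range (19.4 to 23.4 and 16.2 to 19.8 TPM). Cacna1c at 11.2, Cacna1s at 0.161, Ryr3 at 0.0594 and Ryr1 at 0.0379 followed, of which Ryr3 and Ryr1 overlapped.

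Within several families the cells expressed few members, shown in the plot of family levels, whereas both Stim genes and all Orai genes were expressed. Ryr2, the ryanodine receptor of heart muscle, had 5 reads over all 9 libraries. Of the other inositol trisphosphate receptors, Itpr3 averaged 8.34 TPM and Itpr2 0.0152 TPM. Of the other SERCA genes, Atp2a3 averaged 1.27 TPM and Atp2a1, the pump of fast skeletal fibres, 0.456 TPM. Among other pore genes only the T-type Cacna1g, with 1.94 TPM, passed 1 TPM. Stim2 averaged 16.3 TPM, Orai3 19.6 and Orai2 3.05.

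Some partners of the ryanodine receptor were present despite its low level, and others were close to absent. Casq2, the calcium store protein calsequestrin of heart muscle, averaged 339 TPM, and its skeletal relative Casq1 9.10 TPM. Jph2, the junctophilin that ties the reticulum to the surface membrane in heart, averaged 70.4 TPM, whereas Jph1, the skeletal form, had 3 reads and Trdn, triadin, 17 reads in all libraries together. Stac3 and Cacng1, 2 proteins of the skeletal voltage sensor, had 55 and 21 reads. Pln, the SERCA inhibitor phospholamban, averaged 9.51 TPM, and Sln and Strit1, small regulators of the pump, had 3 and 0 reads. Slc8a1, the sodium-calcium exchanger that removes calcium from the cell, averaged 24.8 TPM. The general reticulum protein Calr, calreticulin, averaged 1257 TPM.

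**Figure D2:**
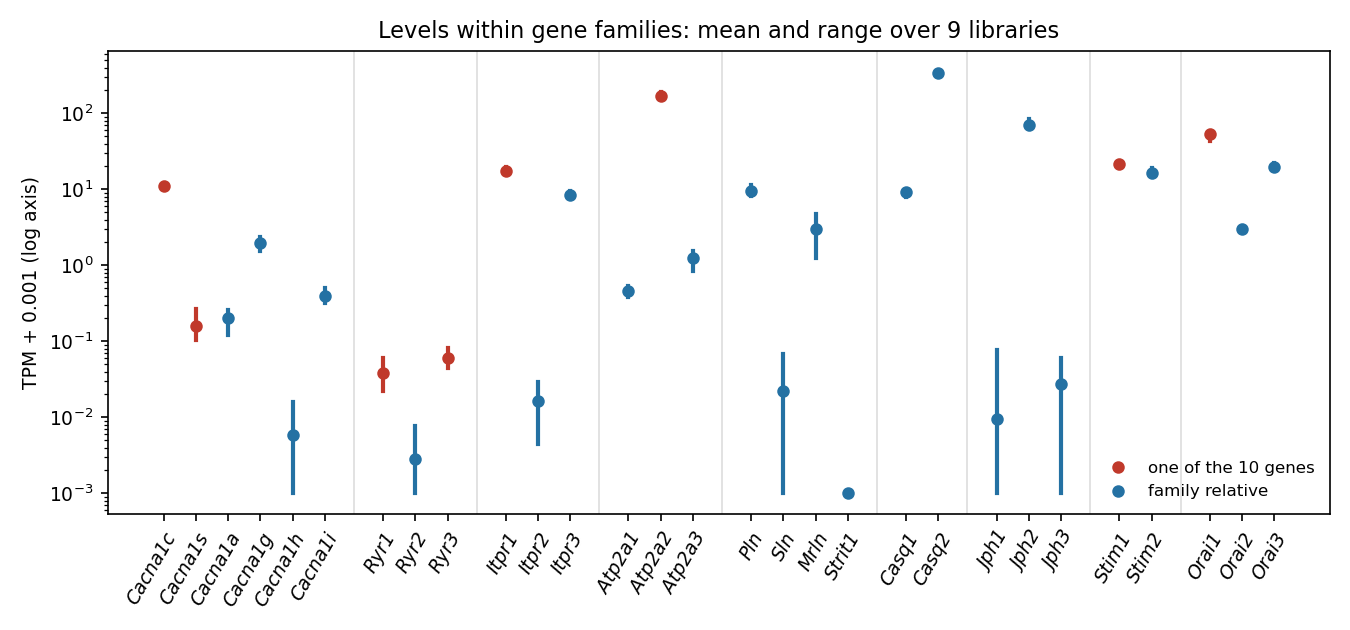
TPM + 0.001 (log axis) of 29 genes in 9 families; points are means and lines are ranges over the 9 libraries, red for the 10 genes and blue for their relatives. Several families are carried by few members, whereas both Stim genes and all Orai genes are expressed. Ryr1, Ryr2 and Ryr3 all lie below 0.1 TPM.

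Most of these genes have several annotated transcripts, and Salmon's division of the reads gave 1 leading transcript in each well-expressed gene (see the plot of transcript shares). Of 3 Atp2a2 transcripts, the one of 4471 bases held 82.5% ± 0.781 of the gene's TPM in ESW, 82.7% ± 0.535 in CW and 84.0% ± 1.49 in Control. A transcript of 5711 bases, annotated as non-coding, held 14.6% ± 0.895, 13.9% ± 1.53 and 13.3% ± 1.26 in ESW, CW and Control. The libraries of the 3 groups overlapped for both transcripts, and the shares were not tested.

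The 32 transcripts of Cacna1c were led by one of 8257 bases, which held 59.6% ± 2.19 in ESW, 58.6% ± 3.72 in CW and 62.2% ± 1.27 in Control. Of 11 Cacna2d1 transcripts, the one of 7398 bases held 64.0% ± 9.77 in ESW, 65.1% ± 5.30 in CW and 68.2% ± 2.46 in Control. Of 4 Itpr1 transcripts, the one of 9667 bases held between 79.8% and 90.3% in the 9 libraries. Stim1 was divided between a transcript of 3839 bases, with 45.4% to 62.2%, and one of 4702 bases, with 31.8% to 44.7%. The leading Cacnb3 transcript of 2521 bases ranged from 32.8% to 64.6%, and its spread within each group, an SD of 9.69 to 10.4 percentage points, was wider than the differences between groups. The Cacnb3 transcript of 1992 bases held 25.8% ± 4.65 in ESW, 22.6% ± 8.18 in CW and 16.6% ± 3.03 in Control. Its ESW libraries lay above its Control libraries, and this was not tested. Orai1 and Cacna1s have 1 transcript each. For Ryr3, with 14 transcripts and 17 to 34 reads per library, all reads went to a different transcript in each ESW replicate, so its isoforms could not be told apart at this depth.

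**Figure D3:**
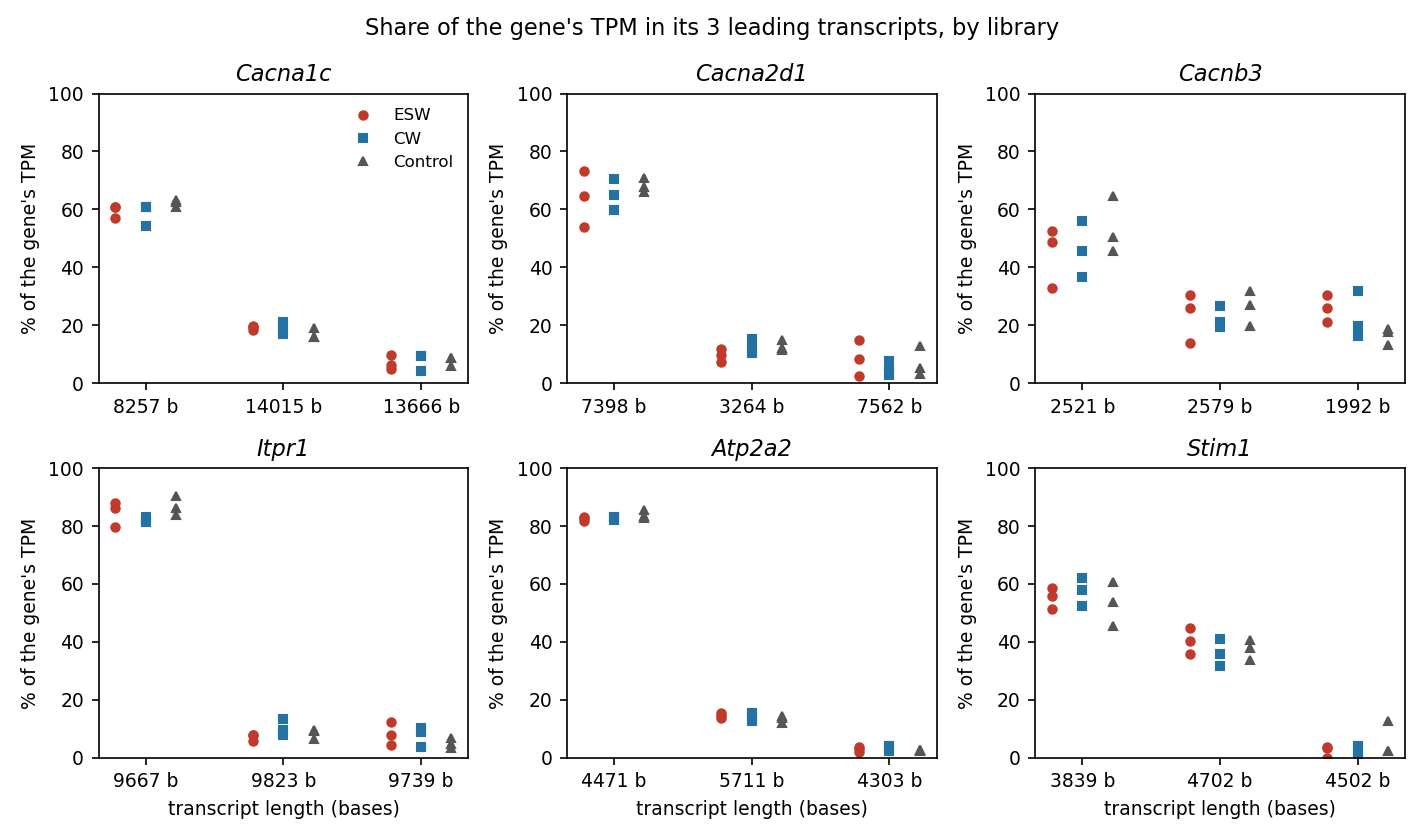
Share of a gene's TPM (percent) in its 3 leading transcripts, named by their length in bases, for 6 genes; each point is a library, with ESW as circles, CW as squares and Control as triangles. Atp2a2 and Itpr1 are dominated by 1 transcript at 79.8% or more in every library. Cacnb3 is divided, with wide spread of its leading transcript inside each group.

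ESW was set against Control to ask what differs after treatment. The pump Atp2a2, the channel subunit Cacnb3 and the store sensor Stim1 were higher in ESW, each 1.11-fold. Of the 10 genes, 3 were called higher and 0 lower at an adjusted p under 0.05 (edgeR quasi-likelihood test, adjusted over 14706 genes), where 8.04% of all tested genes were called, 4.76% higher and 3.28% lower. The median log2 fold change of the 10 was 0.15, against -0.0097 over all tested genes, and 9 of the 10 were above 0. In CPM the ESW libraries lay wholly above the Control libraries for 6 of the 10. This held for 13.3% of all tested genes, and 25.6% did not overlap in either direction. Without Control replicate 1, which stood apart, 2 were called: Atp2a2 at 0.19 (adjusted p = 0.00402) and Stim1 at 0.17 (adjusted p = 0.0363). All 10 genes passed the filter on low counts, Ryr1 through its ESW and CW libraries, since only 1 Control library reached the filter's level. Ryr1 is among the 9 genes above 0 and the 6 without overlap, where its part is a description only. The 10 genes were chosen with earlier results of these data known, so the counts and the median describe them and are not a test.

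Atp2a2 had 453, 464 and 472 CPM in ESW replicates 1 to 3, against 440.25, 401 and 409 CPM in Control. In CPM the groups did not overlap, although Control replicate 1 came close to the lowest ESW library. In TPM they overlapped, with Control replicate 1 at 182 and ESW replicate 1 at 171. The log2 fold change was 0.15 (SE 0.04, adjusted p = 0.026), a fold of 1.11 with a 95% interval of 1.05 to 1.18. The call was lost with offsets for transcript length (log2 fold change 0.11, adjusted p = 0.22). These offsets use a gene's average effective length in each library, a corrected length that can differ between libraries even for a single transcript. Orai1, with 1 transcript of 1184 bases, averaged 725 ± 66.5 bases in ESW and 665 ± 10.7 in Control. The Atp2a2 call was also lost in 4 of the 9 refits that leave out 1 library: without Control replicate 2 (adjusted p = 0.134) or 3 (0.0982) and without ESW replicate 2 (0.0713) or 3 (0.131).

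Cacnb3 had 85.7, 77.9 and 84.1 CPM in ESW, against 74.7, 74.2 and 74.6 CPM in Control. The Control libraries were nearly equal and all ESW libraries lay above them. The log2 fold change was 0.15 (SE 0.04, adjusted p = 0.0393). The call was lost, with an adjusted p between 0.0544 and 0.17, in 7 of 9 refits: without Control replicate 1, 2 or 3, ESW replicate 1 or 3, and CW replicate 2 or 3. The adjusted p was 0.061 with replicate number as a block, 0.0656 with only the 2 groups in the fit, and 0.022 with transcript length offsets.

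Stim1 had 59.4, 61.3 and 62.4 CPM in ESW, against 56.0, 55.5 and 52.9 CPM in Control, again without overlap. Its log2 fold change was 0.16 (SE 0.05, adjusted p = 0.0406). The call was lost without Control replicate 2 (adjusted p = 0.0935) or 3 (0.168), ESW replicate 2 (0.0997) or 3 (0.171), or CW replicate 3 (0.0572). It was also lost with transcript length offsets (0.0949), with the block (0.0634) and with only the 2 groups in the fit (0.0529).

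**Figure D4:**
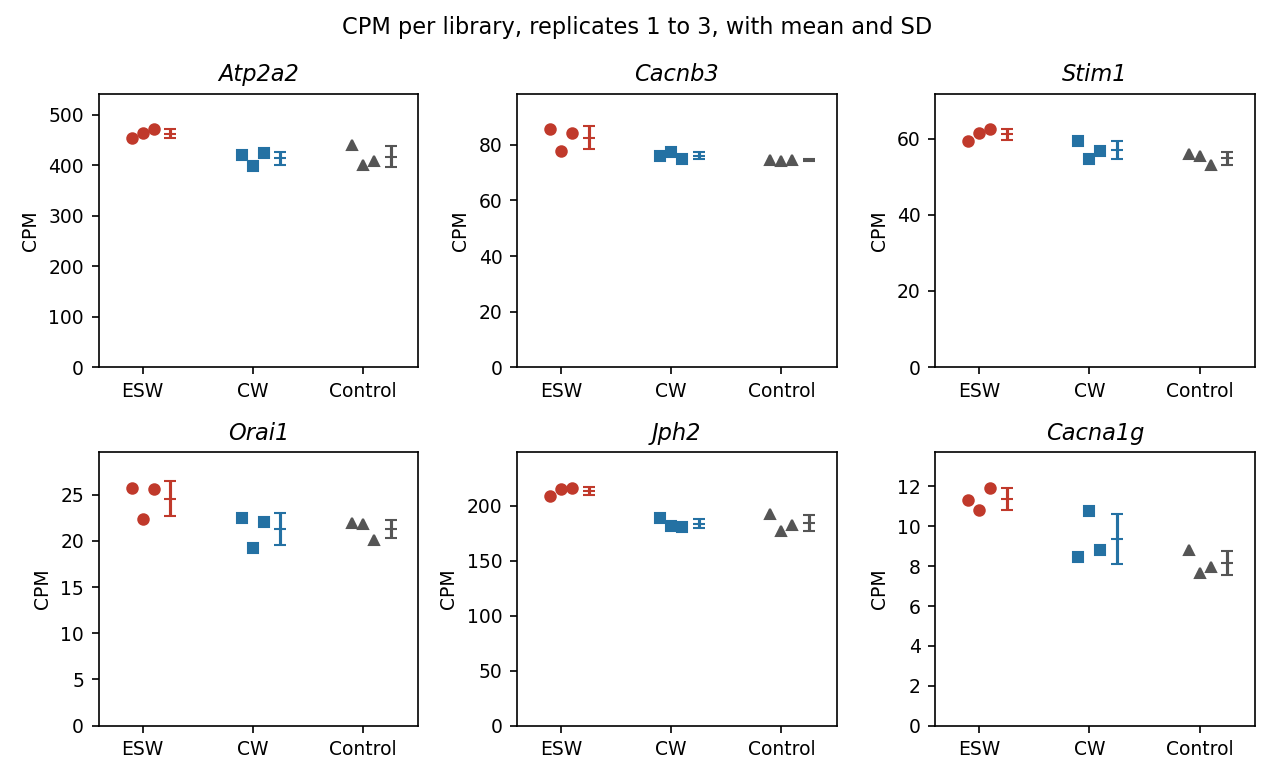
CPM of 6 genes in each library, ESW, CW and Control from left to right, points in the order of replicates 1 to 3, with mean and SD (n = 3) beside them; axes start at 0. Atp2a2, Jph2, Cacnb3 and Cacna1g lie above both other groups in all 3 ESW libraries, Cacnb3 and Cacna1g only narrowly above CW. The fold of Cacna1g is 1.39 against Control, and the differences of the other genes are small against the level.

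The channel pore Orai1 had 25.7, 22.4 and 25.6 CPM in ESW, against 21.9, 21.8 and 20.1 CPM in Control. Its libraries did not overlap in CPM but did in TPM, at 51.9 to 58.8 in ESW and 49.2 to 57.0 in Control. It was not called, at 0.21 on the log2 scale (SE 0.07, adjusted p = 0.084). It was called without ESW replicate 2 (adjusted p = 0.0438). The pore Cacna1c had 75.9, 74.8 and 76.4 CPM in ESW, against 68.2, 66.7 and 74.0 CPM in Control, a log2 fold change of 0.12 (adjusted p = 0.119). Itpr1 averaged 115 ± 7.81 CPM in ESW and 108 ± 4.59 in Control, with overlapping libraries (0.10, adjusted p = 0.243). Cacna2d1 averaged 129 ± 3.25 CPM in ESW and 129 ± 6.04 in Control, and the 95% interval of its fold ran from 0.939 to 1.06.

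The 3 rare transcripts gave wide intervals. Ryr1 averaged 0.453 ± 0.142 CPM in ESW and 0.256 ± 0.0455 in Control, a fold of 1.78 with a 95% interval of 0.961 to 3.28 (adjusted p = 0.251). It passed the filter only through ESW and CW, where it is higher, so these values are a description. Ryr3 had a fold of 1.21 with an interval of 0.737 to 1.98, and Cacna1s one of 1.05 with an interval of 0.634 to 1.75. Differences inside these intervals were not detectable at this depth.

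Other transcripts moved along with these genes. Of 9 fibroblast and smooth muscle markers 5 were higher in ESW than in Control and 7 higher than in CW, where 4.76% and 4.15% of all tested genes were called higher. Tagln lay wholly lower in ESW than in Control and was not called (-0.08, adjusted p = 0.161). The summed level of the 9 was 100690 to 103840 CPM in ESW, 85573 to 90340 in CW and 85040 to 89985 in Control. The collagen genes Col1a1, Col1a2 and Col3a1 made up most of this sum, averaging 38336, 33089 and 17169 CPM in ESW. They averaged 32486, 28620 and 14708 CPM in CW, and 31332, 28442 and 14731 CPM in Control. Of 16 skeletal muscle markers 11 were tested and Ttn and Myh1 were higher in ESW than in Control, and the summed level was 104 to 120.31 CPM in ESW, 84.46 to 93.03 in CW and 83.6 to 87.1 in Control. Most of that sum was Myh1, at 66.3 to 80.2 CPM in ESW, 48.7 to 55.3 in CW and 46.7 to 50.4 in Control, and 5 of the 11 tested markers had log2 fold changes below 0 against Control (Myog, Mymk, Des, Tnnt1 and Tnnt3). Their part in the results on calcium genes was not tested. In bulk RNA, more cells of a kind and more RNA per cell cannot be told apart.

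ESW was set against CW to compare the energized structured water with control water. Atp2a2 was the single gene of the 10 that was called, and it was higher in ESW, where 8.14% of all tested genes were called, 4.15% higher and 3.99% lower. It had 453, 464 and 472 CPM in ESW, against 419.6, 399 and 424 CPM in CW, and no library of CW reached the lowest of ESW. The log2 fold change was 0.16 (SE 0.04, adjusted p = 0.02), a fold of 1.12 with a 95% interval of 1.05 to 1.19. The call was kept with transcript length offsets (adjusted p = 0.0497) and lost without ESW replicate 2 (0.0654) or 3 (0.107) or CW replicate 2 (0.115). The median of the 10 genes was 0.08, against -0.0018 over all tested genes.

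Cacnb3 was the other gene whose libraries did not overlap, at 77.9 to 85.7 CPM in ESW and 75.0 to 77.5 CPM in CW, and it was not called (log2 fold change 0.12, adjusted p = 0.105). Libraries did not overlap for 28.3% of all tested genes and lay wholly higher in ESW for 14.9%. Orai1 averaged 24.6 ± 1.88 CPM in ESW and 21.2 ± 1.74 in CW (0.21, adjusted p = 0.0787), and it was called when no filter on low counts was used (adjusted p = 0.0395). Stim1 and Itpr1 had log2 fold changes of 0.10 and 0.09, with adjusted p of 0.18 and 0.283. Cacna1c and Cacna2d1 had 0.04 and 0.08, with adjusted p of 0.667 and 0.268. For Ryr1 the values were 0.453 ± 0.142 CPM in ESW and 0.47 ± 0.131 in CW. Ryr3 averaged 0.628 ± 0.164 CPM in ESW and 0.676 ± 0.0937 in CW, and Cacna1s 0.596 ± 0.0443 in ESW and 0.799 ± 0.241 in CW, a log2 fold change of -0.40 with a 95% interval of -1.13 to 0.32.

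**Figure D5:**
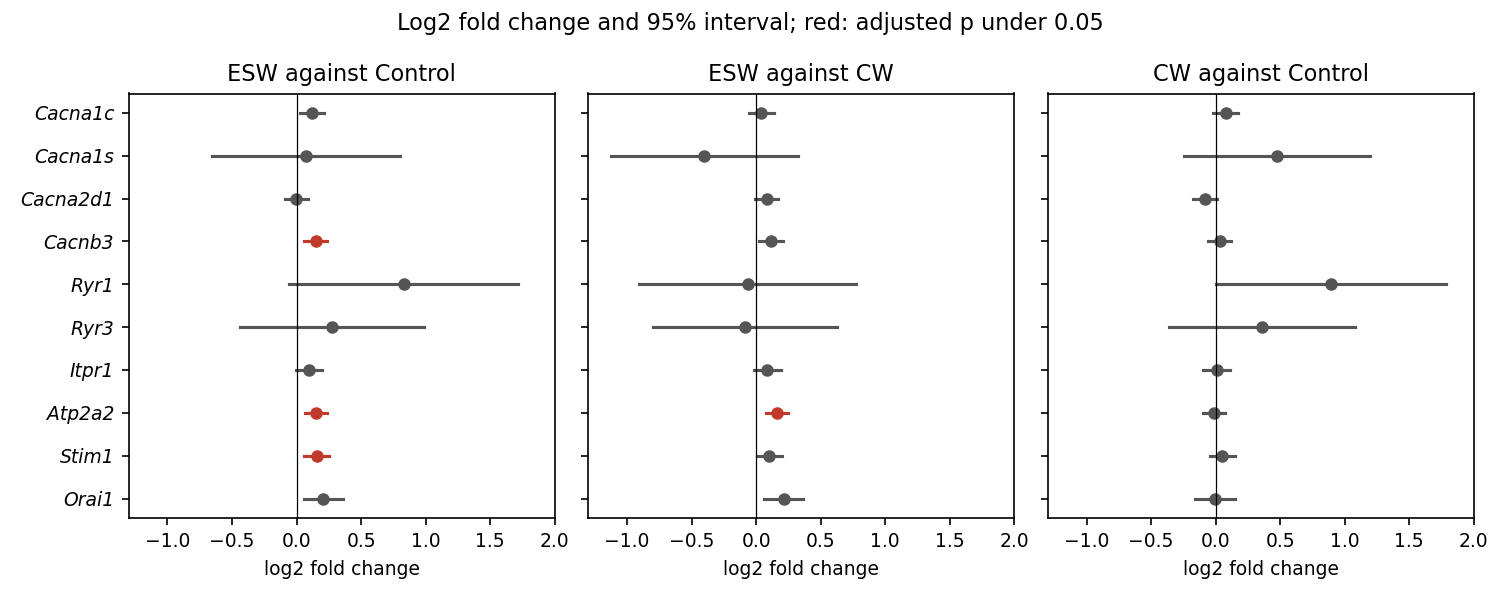
Log2 fold change of the 10 genes with the 95% interval from edgeR in the 3 comparisons; red marks an adjusted p under 0.05. Atp2a2, Cacnb3 and Stim1 are red for ESW against Control and Atp2a2 for ESW against CW, and the intervals of Cacna1s, Ryr1 and Ryr3 are the widest.

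CW was set against Control to give the values for control water. None of the 10 genes was called by edgeR (0 also by DESeq2 and limma-voom), where 0.177% of all tested genes were called, 0.0272% higher and 0.15% lower. The gene with an unadjusted p under 0.05, 1 of the 10, was Ryr1, at 0.47 ± 0.131 CPM in CW and 0.256 ± 0.0455 in Control, a fold of 1.86 with a 95% interval of 1.001 to 3.45 (adjusted p = 0.505). Since Ryr1 passed the filter only through ESW and CW, where it is higher, these values are a description. Its 3 CW libraries lay above the Control libraries, as did those of Cacnb3, where the libraries did not overlap for 14.7% of all tested genes, 7.13% higher and 7.56% lower. The median of the 10 genes was 0.042, against -0.00041 over all tested genes. Atp2a2 averaged 414 ± 13.1 CPM in CW and 417 ± 20.6 in Control, with a 95% interval of the fold of 0.937 to 1.05. The comparisons share libraries, so that their values are not independent of each other.

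Beyond the 10 genes, 92 other genes of calcium handling were listed by role, and 67 were tested. In ESW against Control 5 were higher, 1 lower and 61 not called, where 4.76% of all tested genes were higher and 3.28% lower. The median log2 fold change of the 67 was 0.01. Jph2 had 209, 215 and 216 CPM in ESW, against 192, 177 and 183 CPM in Control, a log2 fold change of 0.21 (adjusted p = 0.00249). With transcript length offsets it was 0.13 (adjusted p = 0.226). Its average effective transcript length was 4619 ± 253 bases in ESW and 4429 ± 69.4 in Control.

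The T-type pore Cacna1g had 11.3, 10.8 and 11.9 CPM in ESW, against 8.82, 7.67 and 7.97 CPM in Control. Its log2 fold change of 0.48 (adjusted p = 0.00551) kept its call in every refit and alternative tried. Itpr3, the second expressed inositol trisphosphate receptor, averaged 56.0 ± 1.38 CPM in ESW and 48.9 ± 1.29 in Control (0.20, adjusted p = 0.0107). That call was lost with transcript length offsets (adjusted p = 0.0564) and without Control replicate 2 (0.0615) or ESW replicate 3 (0.0729).

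Nfatc4, a transcription factor that calcium activates through calcineurin, was higher by 0.21 (adjusted p = 0.0185). Its call was lost without Control replicate 1 (adjusted p = 0.0522) or 3 (0.0691) or ESW replicate 2 (0.0886) or 3 (0.0543). Sri, sorcin, a calcium-binding protein that acts on the ryanodine receptor, was lower at 58.1 ± 1.98 CPM in ESW and 64.8 ± 2.73 in Control (-0.16, adjusted p = 0.037). It lost its call under 3 of 8 alternatives and in 6 of 9 refits, with adjusted p up to 0.193 (without Control replicate 2 or 3, ESW replicate 1 or 3, or CW replicate 2 or 3).

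By role, the called genes described here were 1 of 8 tested voltage-gated channel genes, 3 of 8 release channels and partners and 1 of 16 sensors and effectors. Of all tested genes 8.04% were called. None of 5 pump genes and regulators, 6 reticulum calcium-binding proteins, 8 genes of store-operated entry and 7 exchangers and other pumps was called by edgeR in this comparison, nor by DESeq2 or limma-voom (0 each). In these 4 lists 1, 2, 1 and 0 genes had an unadjusted p under 0.05. Among all 14706 tested genes, an unadjusted p of 0.0487 (edgeR, Jsrp1) held rank 3320. Casq2 averaged 526 ± 9.34 CPM in ESW and 560.08 ± 12.0 in Control (-0.09, adjusted p = 0.127). Pln, Calr, Slc8a1 and Mcu, the pore of mitochondrial uptake, had log2 fold changes of 0.20, 0.03, -0.05 and 0.02, with adjusted p from 0.227 to 0.817. Stim2, Orai2 and Orai3 had 0.05, 0.16 and 0.15, with adjusted p of 0.732, 0.289 and 0.151.

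In ESW against CW 5 of the 67 were higher, 2 lower and 60 not called, where 4.15% of all tested genes were higher and 3.99% lower. Jph2 was higher at 213 ± 3.94 CPM in ESW and 184 ± 4.05 in CW (0.22, adjusted p = 0.00315), and it kept its call in every refit and alternative, with transcript length offsets at an adjusted p of 0.0293. Tmx1, a reticulum thioredoxin that regulates the SERCA pump, Rcn1, a calcium-binding protein of the reticulum, and Atp2c1, a calcium pump of the Golgi, were higher by 0.14, 0.16 and 0.18 (adjusted p = 0.0242, 0.0411 and 0.0489). None was called in ESW against Control, at -0.015, 0.11 and 0.045 (adjusted p = 0.853, 0.156 and 0.685). Tmx1 averaged 269 CPM in ESW, 244 in CW and 272 in Control. In the same order Rcn1 averaged 720, 644 and 666 CPM and Atp2c1 52.5, 46.4 and 51.0 CPM. Each of these 3 lost its call with transcript length offsets. Rcn1 and Atp2c1 also lost theirs with the replicate block (adjusted p = 0.0515 and 0.0557) and the filter of 1 CPM (0.0511 and 0.0598), and Atp2c1 with DESeq2 size factors (0.052). The call was also lost for Tmx1 without ESW replicate 2 or 3 or CW replicate 1 or 2, with adjusted p up to 0.124. For Rcn1 this was so without Control replicate 2, ESW replicate 2 or 3, or CW replicate 2 or 3, up to 0.192. For Atp2c1 it was so without Control replicate 2, any ESW replicate, or CW replicate 2 or 3, up to 0.213. Cacna1g was at 0.27 (adjusted p = 0.092).

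The 2 lower genes were Irag1, which couples cGMP signals to the inositol trisphosphate receptor, and Mrln, myoregulin, a small inhibitor of SERCA. Irag1 averaged 184 ± 3.53 CPM in ESW and 207 ± 5.79 in CW (-0.17, adjusted p = 0.024). In Control it averaged 183 ± 12.5 CPM. Mrln had 7, 11 and 6 reads in ESW, against 13, 25 and 25 reads in CW, a fold of 0.346 with a 95% interval of 0.194 to 0.619 (adjusted p = 0.0237). All 3 ESW libraries of Mrln lay below the filter's level of 0.275 CPM, so the gene was tested only through the groups where it is higher, and it was not tested with the filter of 1 CPM. It had 21, 18 and 27 reads in Control, and ESW against Control gave a fold of 0.407 (adjusted p = 0.0512). Both calls were lost with transcript length offsets, that of Irag1 without ESW replicate 2 or 3 or CW replicate 2 or 3, and that of Mrln without any ESW replicate or CW replicate 2 or 3, with adjusted p up to 0.116 for both.

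In CW against Control 0 of the 67 were called by edgeR, where 0.177% of all tested genes were called. Of the 67, 10 had an unadjusted p under 0.05. The share of all tested genes at that level was not counted, so the 10 is a description. By limma-voom 0 were called and by DESeq2 3. The 3 were Irag1, higher by 0.18, and Tmx1 and Fkbp1a, lower by 0.15 and 0.13 on the log2 scale in the DESeq2 fit, with adjusted p of 0.0144, 0.00516 and 0.0187. Fkbp1a encodes the immunophilin that binds ryanodine and inositol trisphosphate receptors. It averaged 306 ± 6.67 CPM in CW and 336 ± 4.98 in Control.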

How the data were processed

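RNA of 9 libraries was sequenced on an Illumina NovaSeq instrument, per the labels. Salmon 1.10.3 and DESeq2 (no version) appear in the submitters' processing notes. Each deposited table gives, per the file headers, an estimated count, a TPM, a length and an effective length for 114122 transcripts. The estimated counts and TPM come from the authors' Salmon run. A column of other values, the effective length as deposited, is a corrected length in bases. Genome build, annotation release and use of strand are not given in the sources used here. Overlapping and antisense genes may therefore share reads.

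Transcripts were matched by accession to the RefSeq gene table of GRCr8, and counts were summed over 36856 genes and rounded. Quasi-likelihood tests used edgeR 4.0.16 (R 4.3.3, TMM, filterByExpr with a minimum count of 10), with 14706 genes tested. A single model held the 3 groups, with 6 residual degrees of freedom. P-values were adjusted over all tested genes (Benjamini-Hochberg) and called below 0.05, and intervals of 95% come from the same model. Nothing in the labels says that replicates were separate cultures, so the p-values reflect spread between these samples that may be technical.

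No 2 libraries of a group agreed within sampling noise. Alternatives were DESeq2 size factors, no filter, at least 1 CPM in 3 libraries, the DESeq2 1.42.0 test, limma-voom (limma 3.58.1), average transcript length offsets, a replicate block, only the 2 groups compared, and each library left out. The tests were also run on simulated data with planted changes, and the outcome is not given here. The planted changes were larger than the 1.11-fold differences of Atp2a2, Cacnb3 and Stim1, so that run does not bear on them. The rule for named genes took all 10 genes, up to 8 higher and 8 lower called pathway genes per comparison by smallest p, and a panel of relatives. Other relatives given by level were chosen after their values were seen. The 10 genes and the lists were chosen with earlier results of these data known. Some genes of the lists are counted but not reported by name here.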

Additional observations from a re-analysis of the deposited data

How the results depend on the processing

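The 8 alternatives and the 9 refits that leave out a library moved mainly the number of calls. Of the 10 genes in ESW against Control, 3 were called, against 1 with average transcript length offsets (Cacnb3), 1 with the replicate block and 1 with only the 2 groups compared (Atp2a2 in both), and 0 to 3 without a replicate. In ESW against CW 1 was called, against 2 without a filter on low counts and 0 to 1 without a replicate. In CW against Control the count was 0 throughout, also in the refits (0 to 0). Of the pathway genes 6 were called in ESW against Control (2 with length offsets, 2 to 6 without a replicate) and 7 in ESW against CW (2 with length offsets, 4 with the filter of 1 CPM, 1 to 7 without a replicate). In CW against Control 0 were called, but 2 without a filter, 3 with DESeq2 and 0 to 1 without a replicate. Of all genes 1183, 1197 and 26 were called in the 3 comparisons. For ESW against Control this was 440 with length offsets and 394 to 1544 without a replicate, and for ESW against CW 314 to 1486 without a replicate. For CW against Control it was 273 without a filter, 84 with DESeq2, 2 with length offsets, 16 with only the 2 groups compared and 5 to 51 without a replicate. The causes were not tested.

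Of the log2 fold changes of the named genes, Cacna2d1 in ESW against Control changed sign, to 0.0012 with DESeq2 size factors, 0.0032 with DESeq2 and 0.00058 with length offsets. Without a replicate, signs changed for Cacna2d1 (-0.028 to 0.034) and Cacna1s (-0.11 to 0.26) in ESW against Control and for Ryr1 (-0.32 to 0.14) and Ryr3 (-0.32 to 0.062) in ESW against CW. They also changed for Atp2a2 (-0.037 to 0.033), Itpr1 (-0.026 to 0.034) and Orai1 (-0.048 to 0.063) in CW against Control. No value of opposite sign was called.

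Libraries of different groups with the same replicate number did not deviate together, with correlations of -0.12 to 0.04, and 6 of 18 checks found the best match at the own number. With replicate number as a block, 1 of the 10 genes, 4 of the pathway genes and 971 of all genes were called in ESW against Control. In ESW against CW the counts with the block were 1, 5 and 949, and in CW against Control 0, 0 and 25. Depth limits Cacna1s, Ryr1 and Ryr3, with 8 to 34 reads per library. Mrln has no value with the filter of 1 CPM, which it did not pass.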

Other observations

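Titin (Ttn), the giant spring protein of the sarcomere, had 40, 43 and 44 reads in ESW and 40, 52 and 29 reads in CW, against 14, 25 and 22 reads in Control. In CPM it averaged 1.13 ± 0.118 in ESW, 1.22 ± 0.347 in CW and 0.494 ± 0.165 in Control. Its transcripts are very long, and in TPM it averaged only 0.0135 over all libraries, below Ryr1 at 0.0379. Ttn was thus near the limit of detection. It was called in ESW against Control (log2 fold change 1.20, adjusted p = 0.0294) and not in CW against Control (1.30, adjusted p = 0.143), and ESW against CW gave -0.10 (adjusted p = 0.885). Desmin (Des) averaged 4.55 CPM in ESW, 5.06 in CW and 5.77 in Control and was not called in any comparison. Ttn and Des were named after their values were seen.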
